A study of Mus musculus with 11 samples.

Results

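The 39 genes described here encode the TFEB family of transcription factors, the subunits of the vacuolar proton pump (V-ATPase), and the hydrolases and membrane proteins of the lysosome. They were taken by name as a list that no threshold on a measured value decided, although earlier results of these data were known when it was drawn up, and all 39 were found among the 34728 gene symbols of the table. By role they were 3 TFEB family members, 6 subunits of the membrane-bound V0 sector and 8 of the cytosolic V1 sector of the pump, 2 accessory proteins of the pump, 6 cathepsins with TPP1, 5 glycosidases, a sphingolipid enzyme and its activator, 3 membrane proteins, and 3 genes for cholesterol export and ion flow. RNA was measured in 11 libraries of GFP-sorted islet cells from 8-week-old mice of mixed C57BL/6 x 129SV strain, and the study states that it used male mice. The 3 WT libraries came from RIP-Cre; *Raptor*+/+; *Rosa26*GFP mice, so the controls also carried RIP-Cre, a Cre recombinase under control of an insulin promoter from rat. The 4 diabetic and the 4 euglycemic libraries came from RIP-Cre; *Raptor*-/-; *Rosa26*GFP (βRapKOGFP) mice, without and with insulin that was supplied for 4 weeks from an implant, which the labels call a pellet and the methods an osmotic pump. Cre under this promoter marks the β-cell lineage with GFP, and a cell that has since lost insulin keeps the label. The labels number the libraries but do not tie them to single mice, so the p-values below measure the spread between these libraries.

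The lysosome is the acidic compartment in which the cell breaks down protein, lipid and glycogen, and in β-cells it also disposes of surplus insulin granules. The V-ATPase pumps protons into lysosomes and into the insulin granule, where acid is needed for proinsulin processing. mTORC1, of which Raptor is the subunit that recruits substrates, is switched on at the lysosomal surface and phosphorylates TFEB, TFE3 and MITF, which keeps them out of the nucleus. These factors bind the E-box CACGTG and its extended form, the CLEAR element, in the promoters of lysosomal genes. The comparison of the 3 groups therefore asks whether lysosomal transcripts differed in β-cells that had lost Raptor, with high or with normal blood glucose.

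E-boxes, the sequences that the TFEB family binds, were looked for near the transcription starts of these genes. RefSeq promoter windows, from 250 bases before to 50 after each start, were used for 30 of the 39 members, and each window was searched on both strands for CACGTG, for TCACGTG and for TCACGTGA, each of which contains the one before. CACGTG was found in 11 of the 30 genes (36.7%), against 8.09% of all 27025 genes with a window. The longer words were in 10 genes (33.3%, against 4.29% of all genes) for TCACGTG and in 6 (20%, against 1.12%) for TCACGTGA. The 18 E-boxes had a median position of 42 bases before the start, and 14 of them lay within 100 bases of it or downstream. Those 11 genes were *Atp6v0b*, *Atp6v0d1*, *Atp6v0e*, *Atp6v1a*, *Ctsa*, *Ctsd*, *Ctsl*, *Gaa*, *Glb1*, *Lamp1* and *Mcoln1*, and none of the 3 TFEB family genes was among them. These matches describe letters in a window and are not binding sites measured in these cells.

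The windows of 8 genes are printed because they carry the longer words and belong to genes whose values are given below. Each runs 5′ to 3′ on the strand of its gene from 150 bases before the start to 15 bases after it in GRCm38.p6, and the capitals mark TCACGTG or TCACGTGA read on either strand. The window of *Lamp1*, the major lysosomal membrane glycoprotein, is chr8:13159011-13159175 (plus strand) and holds 4 E-boxes centred 58, 42, 25 and 12 bases before the start. That of *Mcoln1*, which encodes a lysosomal calcium channel, is chr8:3500369-3500533 (plus strand) and holds 2. Of the pump genes, *Atp6v0b* at chr4:117887315-117887479 (minus strand) holds 2, *Atp6v0d1* at chr8:105566050-105566214 (minus strand) has 1 across the start itself, and *Atp6v0e* at chr17:26676246-26676410 (plus strand) has 1 just behind a RefSeq start that lies within the annotated gene. Of the hydrolases, *Ctsa* at chr2:164833623-164833787 (plus strand) holds 2 at a RefSeq start within the annotated gene, while its other window, at the gene's first start, holds 0, and *Ctsd* at chr7:142387813-142387977 (minus strand) and *Gaa* at chr11:119267813-119267977 (plus strand) show 1 each in the stretch printed.
Lamp1: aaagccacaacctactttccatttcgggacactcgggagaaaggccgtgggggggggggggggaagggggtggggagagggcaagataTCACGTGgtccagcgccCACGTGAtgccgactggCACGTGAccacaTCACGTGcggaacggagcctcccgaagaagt
Mcoln1: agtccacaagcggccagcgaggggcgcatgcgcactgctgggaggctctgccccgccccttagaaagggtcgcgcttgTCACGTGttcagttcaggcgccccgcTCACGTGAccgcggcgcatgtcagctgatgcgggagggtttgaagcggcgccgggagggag
Atp6v0b: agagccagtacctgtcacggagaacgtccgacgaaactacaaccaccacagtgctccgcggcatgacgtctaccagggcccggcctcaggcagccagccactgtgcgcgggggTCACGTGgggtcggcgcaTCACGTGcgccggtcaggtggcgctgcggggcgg
Atp6v0d1: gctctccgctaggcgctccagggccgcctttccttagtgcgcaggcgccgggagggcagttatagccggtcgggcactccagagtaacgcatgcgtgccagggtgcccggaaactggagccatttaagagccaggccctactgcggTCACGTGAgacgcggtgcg
Atp6v0e: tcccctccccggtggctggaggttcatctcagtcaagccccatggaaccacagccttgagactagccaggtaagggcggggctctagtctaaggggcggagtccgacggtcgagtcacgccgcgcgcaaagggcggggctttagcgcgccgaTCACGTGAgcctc
Ctsa: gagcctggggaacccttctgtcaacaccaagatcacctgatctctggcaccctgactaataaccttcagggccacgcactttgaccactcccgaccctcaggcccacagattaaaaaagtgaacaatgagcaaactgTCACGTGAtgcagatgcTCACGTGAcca
Ctsd: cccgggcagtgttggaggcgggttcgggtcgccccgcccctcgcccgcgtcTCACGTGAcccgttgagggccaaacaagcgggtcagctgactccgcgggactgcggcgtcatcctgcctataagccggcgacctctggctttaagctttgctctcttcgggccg
Gaa: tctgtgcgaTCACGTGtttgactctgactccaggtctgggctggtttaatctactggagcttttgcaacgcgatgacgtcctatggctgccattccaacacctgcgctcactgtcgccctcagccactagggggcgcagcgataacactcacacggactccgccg

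**Figure D1:**
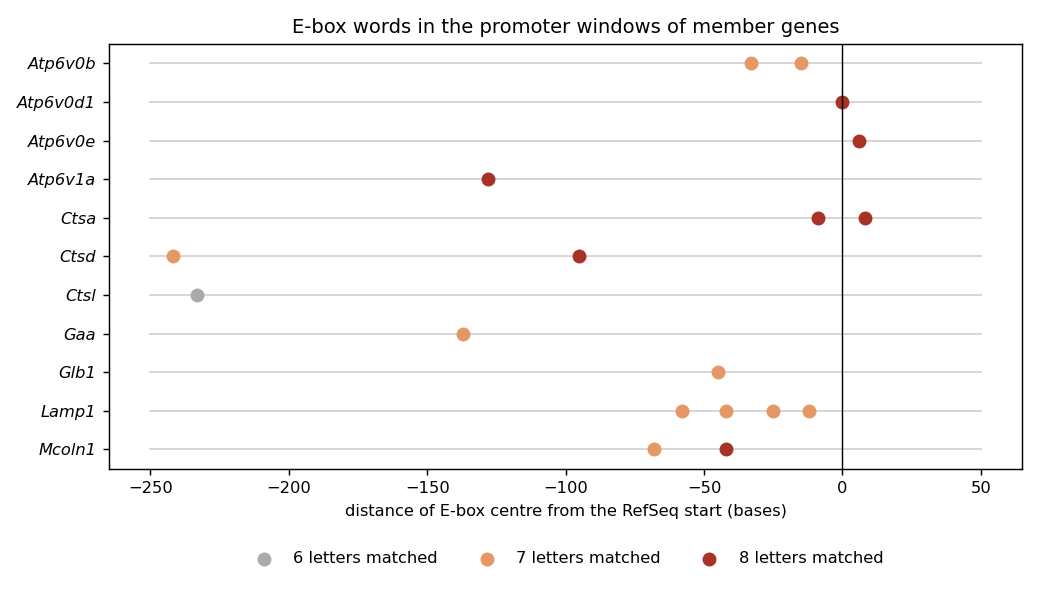
Distance in bases of the centre of each E-box from the RefSeq transcription start (vertical line), for the 11 members with one. The grey line is the window searched, and the colour gives the number of letters matched (6, 7 or 8). Most points lie close to the start, with 4 of them in *Lamp1*.

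Each value is in FPKM, which counts sequenced fragments relative to transcript length and to the size of the library, so that levels of different genes can be compared. The depth inferred from the low values of single-exon genes was 9506156 to 16659222 fragments per library, at which 1 fragment on a transcript of 1 kilobase is worth 0.0600 to 0.105 FPKM. Differences are given as the log2 fold change of FPKM + 1, which understates the change of low genes, from a limma fit over the 11251 genes with at least 1 FPKM in at least 3 libraries. A gene was called if it changed by 1.5-fold or more and its Benjamini-Hochberg adjusted p did not exceed 0.05. *Rptor*, the gene that was deleted, was at 0.948, 1.36 and 1.79 FPKM in WT, at 0.485 to 0.937 in diabetic and at 0.423 to 0.623 in euglycemic libraries, so that no mutant library reached the lowest WT value. The 10 β-cell markers summed to 157613 to 191511 FPKM in WT, 138230 to 206534 in diabetic and 117287 to 202220 in euglycemic libraries. The summed α-cell markers were higher in every mutant library, at 4149 to 23920 FPKM, than in WT, at 1081 to 2488 FPKM, as were those of δ-cells (4864 to 13953 against 1176 to 2514 FPKM) and of PP cells (3674 to 14238 against 513 to 1107 FPKM), and their part in the members' values was not tested. Duct cell markers were higher in all euglycemic libraries, at 97.1 to 133 FPKM, than in WT, at 58.1 to 71.8 FPKM. The 11 acinar markers summed to 888 to 4363 FPKM in diabetic replicates 1, 2 and 3 and euglycemic replicates 1 and 4 and to at most 39.3 FPKM in the other libraries. Diabetic replicates 1 and 2 also held *Lyz2* RNA, at 59.4 and 13.2 FPKM, against at most 3.07 FPKM in the others. Endothelial and stromal markers were higher in all diabetic libraries, at 8.81 to 53.3 and 0.970 to 18.8 FPKM, than in WT, at 1.68 to 4.18 and 0 to 0.641 FPKM. The 6 lymphocyte markers went the other way, at 8.20 to 20.1 FPKM in WT, where all but *Cd79a* were listed at 0, and at no more than 1.13 FPKM in the mutant libraries. The part of these cells in the members' values was not tested. In sorted populations of this kind, fewer cells of a type and less RNA per cell cannot be told apart.

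The sorted cells held most lysosomal transcripts at high levels and those of the TFEB family at low levels. In WT, 11 members had a mean of at least 100 FPKM, 20 lay between 10 and 100, 4 between 1 and 10 and 4 below 1 FPKM. *Lamp1* was the highest at 521 ± 84.5 FPKM (SD, n = 3), above 99.5% of the genes tested, and its 3 WT libraries lay above those of the next gene. The next in order were *Atp6ap2*, the renin receptor and pump accessory protein, at 275 ± 74.1 FPKM, and the V1 subunits *Atp6v1g1* at 223 ± 74.9 FPKM and *Atp6v1d* at 167 ± 58.0 FPKM. The glycosidase *Hexa*, which degrades gangliosides, followed at 155 ± 4.37 FPKM. Of the 38 neighbouring pairs in this order, the WT libraries of the higher gene lay wholly above those of the lower one in 7. This count compares ranges over libraries and not the 2 genes within each library, where their order can still be the same. *Atp6v1g1*, for one, was at 309, 179 and 180 FPKM in WT, below *Atp6ap2* in each library (360, 238 and 227 FPKM). The 8 genes lowest in order were *Atp6v0a1*, *Gusb*, *Atp6v0a2*, *Tfe3*, *Npc1*, *Ctsh*, *Tfeb* and *Mitf*. The 11 members with an E-box had WT means of 10.3 to 521 FPKM with a median of 40.3, and the 19 with a window and no E-box had 0.152 to 275 FPKM with a median of 36.0.

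Most pump transcripts came from the widely expressed isoforms. *Atp6v1b2* was the B subunit transcript in every library, and *Atp6v1b1*, the isoform of kidney and epididymis, was listed at 0 in all 11. Among d subunits *Atp6v0d1* made up 99.3 to 100% of the FPKM, and *Atp6v1c1*, *Atp6v1e1* and *Atp6v1g1* made up at least 98.8% of theirs. The e subunit was the exception, since *Atp6v0e*, which is a member, took 30.4 to 43.4% and *Atp6v0e2* the rest. For the a subunit, which places the pump on its membrane, *Atp6v0a1* took 45.1 to 74.1%, *Atp6v0a2* 22.9 to 47.0% and *Tcirg1*, known from osteoclasts, 0 to 12.8%.

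**Figure D2:**
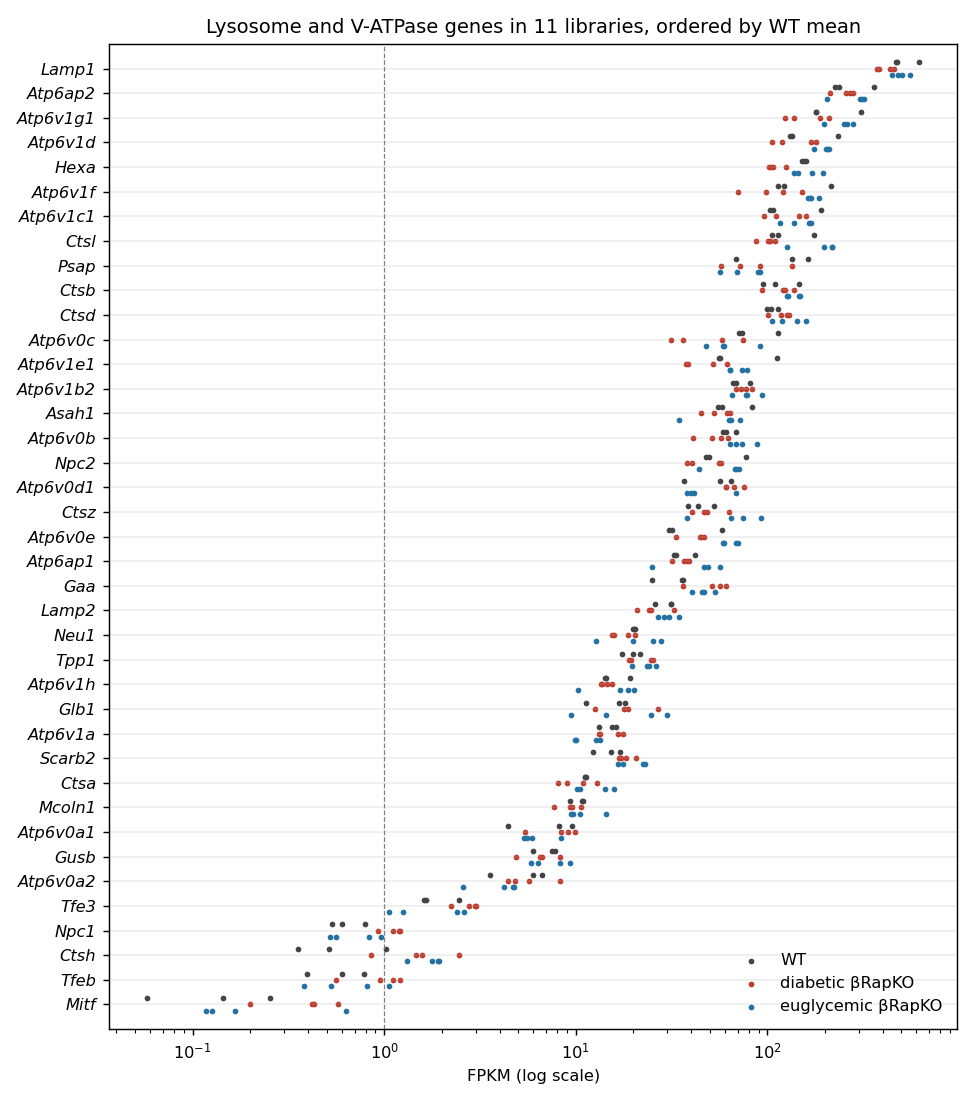
FPKM on a log scale in each of the 11 libraries for the 39 members, ordered by WT mean from the top, with 1 point per library and the 3 groups in 3 colours. The dashed line marks 1 FPKM. The order of levels spans from *Lamp1*, at 372 to 618 FPKM, to *Mitf*, below 1 FPKM in every library, and the groups overlap for most genes.

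No member was called in any of the 4 comparisons. Of the 38 members tested, 0 were called higher and 0 lower in diabetic against WT, where 0.471% and 0.498% of all genes tested were called, in euglycemic against WT (0.356% and 0.196% of all genes), in diabetic against euglycemic (0.00889% and 0%) and in both mutant groups against WT (0.533% and 0.516%). The lowest limma adjusted p of a member was 0.246 (*Gaa*), 0.178 (*Ctsh*), 0.123 (*Ctsl*) and 0.164 (*Ctsh*) in these 4 comparisons. Without the 5 libraries that held acinar RNA, only 1 diabetic and 2 euglycemic libraries were left beside WT, and 1, 4, 0 and 10 of all 11251 genes were called, so the 0 members called there say nothing of stability. Of the 38, 2 (*Tfeb* and *Npc1*) reached 1 FPKM in mutant libraries only, so they entered the test through the groups in which they were higher. *Ctsh* did so too, with 1 WT, 3 diabetic and 4 euglycemic libraries at 1 FPKM or more. The intervals set how much could be missed, because against WT a member's 95% interval reached a median of 0.50 on the log2 scale (1.41-fold) to either side in each single mutant group. In both mutant groups against WT, the interval lay within a 1.5-fold change either way for 22 of the 38 members and within a 2-fold change for 35.

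At an unadjusted p of at most 0.05, 2 members were higher and 3 lower in diabetic against WT, where 6.15% and 5.74% of all genes tested passed. In euglycemic against WT 4 were higher and 0 lower (7.33% and 6.52% of all genes), and in both mutant groups against WT 2 were higher and 1 lower (5.94% and 5.37%). In diabetic against euglycemic 1 was higher and 7 lower, where 10.6% and 10% of all genes passed. These counts turned on single libraries. Leaving out each in turn gave 1 to 3 higher and 1 to 3 lower in diabetic against WT, 2 to 7 and 0 to 2 in euglycemic against WT, 2 to 4 and 0 to 2 in both mutant groups against WT, and 0 to 4 and 2 to 12 in diabetic against euglycemic. The 12, the 4 and the 7 arose without euglycemic replicate 4 and the 2 lower in diabetic against euglycemic without diabetic replicate 1. The median log2 fold change of the members was -0.06 in diabetic against WT, 0.10 in euglycemic against WT and -0.18 in diabetic against euglycemic, beside 0.01, -0.01 and 0.01 for all genes tested. With each library left out, these medians of the members ran from -0.14 to -0.01, from 0.03 to 0.22 and from -0.28 to -0.10. Positive log2 fold changes were found in 18, 28 and 10 of the 38 members, beside 50.7%, 49% and 50.9% of all genes. The first 2 of these comparisons share the WT libraries. In diabetic against WT all libraries were higher for 1 member (*Npc1*) and lower for 2 (*Hexa* and *Lamp1*), beside 6.67% and 6.88% of all genes, and in euglycemic against WT they were higher for 3 (*Atp6v0e*, *Ctsh* and *Gaa*) and lower for 0, beside 5.91% and 5.02%. For both mutant groups together no member was apart from WT in either direction, beside 1.9% and 1.78% of all genes.

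**Figure D3:**
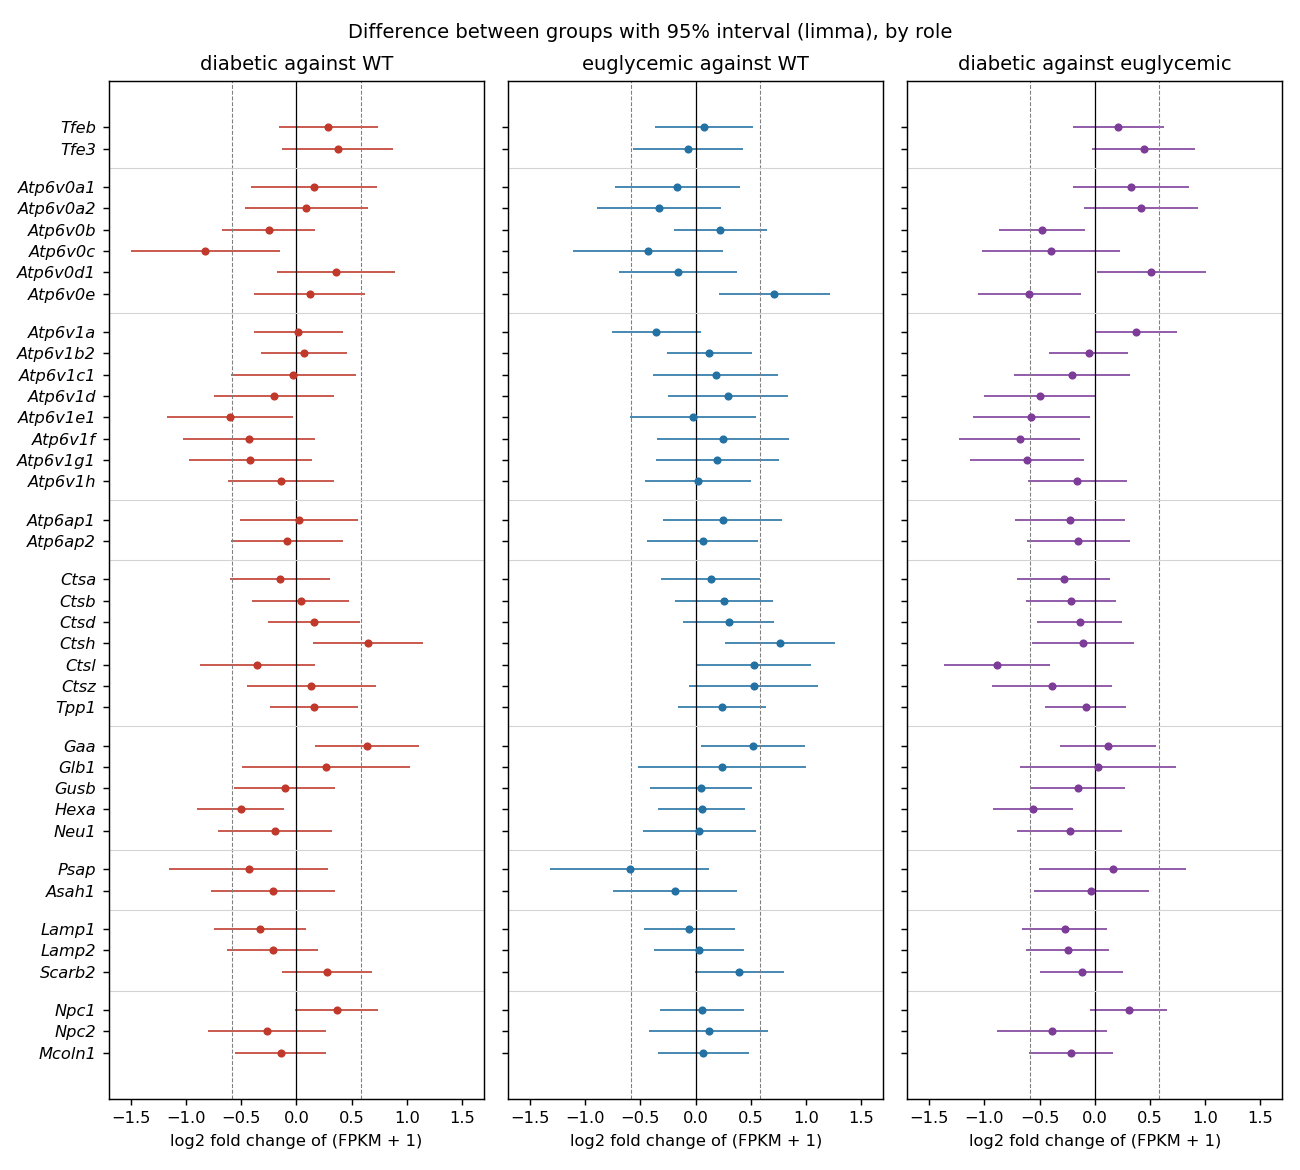
Log2 fold change of FPKM + 1 with its 95% limma interval for the 38 members tested, grouped by role, in diabetic against WT, euglycemic against WT and diabetic against euglycemic. Dashed lines mark a 1.5-fold change. No member passed the adjusted threshold, and in diabetic against euglycemic 28 of 38 points lie below 0.

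The TFEB family was expressed at low levels in every group. *Tfeb* (chromosome 17, 47737030 to 47792419 in GRCm38, as are all gene positions here) was at 0.395, 0.603 and 0.784 FPKM in WT, at 0.947, 1.21, 0.557 and 1.11 in diabetic and at 1.06, 0.526, 0.383 and 0.810 in euglycemic libraries. The groups overlapped, and the log2 fold change was 0.29 ± 0.21 (SE, limma adjusted p = 0.635) in diabetic against WT and 0.08 ± 0.21 in euglycemic against WT. *Tfe3* (chromosome X, 7762560 to 7775202) was the most abundant of the family, at 1.61, 1.65 and 2.45 FPKM in WT, 2.22, 3.02, 2.98 and 2.76 in diabetic and 1.25, 1.06, 2.40 and 2.61 in euglycemic libraries. Of the 4 diabetic libraries 3 lay above every WT library, and the log2 fold change was 0.37 ± 0.23 (SE, limma adjusted p = 0.577). *Mitf* (chromosome 6, 97807052 to 98021349), better known from melanocytes and osteoclasts, was too low for the fit. It was at 0.143, 0.0581 and 0.255 FPKM in WT, 0.421, 0.575, 0.200 and 0.428 in diabetic and 0.166, 0.126, 0.118 and 0.633 in euglycemic libraries. A two-sided exact permutation test on log2(FPKM + 1) gave p = 0.0857 for diabetic against WT (n = 4 and 3) and p = 0.714 for euglycemic against WT, where the smallest p these numbers allow is 0.0286. *Tfec*, the remaining gene of the family and no member, was listed at 0 in all WT and euglycemic libraries. Levels of mRNA do not measure where the factors are in the cell.

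The V0 sector, which carries the protons across the membrane, held the lowest log2 fold change of all members in diabetic against WT. *Atp6v0c* (chromosome 17, 24163866 to 24169702), the proteolipid of the ring, was at 114, 71.3 and 74.2 FPKM in WT, 31.6, 58.0, 74.5 and 36.3 in diabetic and 58.4, 91.4, 59.7 and 47.6 in euglycemic libraries. Its log2 fold change was -0.83 ± 0.31 (SE, limma adjusted p = 0.298) in diabetic against WT, and the groups overlapped through diabetic replicate 3. In euglycemic against WT it was -0.43 ± 0.31, and 10.8% of its 50-base stretches also occur in other genes, mostly in the pseudogene *Atp6v0c-ps2*. *Atp6v0e* (chromosome 17, 26663231 to 26699647), the small e subunit, was at 58.2, 30.8 and 32.0 FPKM in WT, 33.2, 46.7, 44.98 and 44.6 in diabetic and 59.4, 68.4, 70.2 and 58.4 in euglycemic libraries. Every euglycemic library lay above every WT and every diabetic one, although WT replicate 1 was close to the lowest of them. The log2 fold change was 0.71 ± 0.23 (SE, limma adjusted p = 0.210) in euglycemic against WT and 0.12 ± 0.23 in diabetic against WT. Without WT replicate 1 the euglycemic difference was 1.003 with an adjusted p of 0.0201, past the threshold, in a setting where 4.76% of all genes were called (532 of 11186) against 0.551% with all libraries. The other 4 subunits of the sector lay between -0.25 and 0.36 in diabetic against WT and between -0.33 and 0.22 in euglycemic against WT.

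The V1 sector hydrolyses ATP to drive the pump. *Atp6v1b2* was at 71.9 ± 8.36 FPKM (SD, n = 3) in WT, 75.3 ± 6.11 (n = 4) in diabetic and 78.7 ± 11.3 (n = 4) in euglycemic libraries, with a log2 fold change of 0.10 ± 0.16 (SE) for both mutant groups against WT. Its values were 81.4, 68.4 and 65.8 FPKM in WT, 72.5, 68.8, 83.0 and 76.9 in diabetic and 78.3, 65.7, 93.3 and 77.7 in euglycemic libraries. *Atp6v1e1* (chromosome 6, 120794305 to 120822793), part of the stalk of the pump, was at 113, 55.8 and 56.6 FPKM in WT, 37.4, 38.4, 52.2 and 61.4 in diabetic and 63.9, 73.8, 78.2 and 63.7 in euglycemic libraries. Its log2 fold change was -0.60 ± 0.26 (SE, limma adjusted p = 0.398) in diabetic against WT and -0.03 ± 0.26 in euglycemic against WT. WT replicate 1 was far above the other WT libraries, which lay within the range of the diabetic ones, and without it the diabetic difference was -0.27. With diabetic replicate 4 as the only diabetic library free of acinar RNA, it was -0.20. In euglycemic against WT 6 of the 8 V1 subunits were above 0, and in diabetic against WT 2 of the 8 were. For both mutant groups against WT the remaining 6 (*Atp6v1a*, *Atp6v1c1*, *Atp6v1d*, *Atp6v1f*, *Atp6v1g1* and *Atp6v1h*) had log2 fold changes between -0.17 and 0.08. The accessory genes *Atp6ap1* and *Atp6ap2* had log2 fold changes of 0.13 ± 0.22 and -0.01 ± 0.21 (SE) in both mutant groups against WT. *Atp6ap1* was at 42.1, 33.3 and 32.6 FPKM in WT, 31.8, 39.2, 38.2 and 36.6 in diabetic and 47.0, 49.0, 56.5 and 25.1 in euglycemic libraries. *Atp6ap2* was at 360.3, 238 and 227 FPKM in WT, 256, 211, 281 and 269.9 in diabetic and 312, 320.4, 305 and 204 in euglycemic libraries.

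Among the proteases, *Ctsh* (chromosome 9, 90054152 to 90076089) had the highest log2 fold change for both mutant groups against WT, and it was tested only because the mutant libraries reached the minimum level. Cathepsin H is an aminopeptidase of the lysosome. Its gene was at 1.02, 0.516 and 0.355 FPKM in WT, 1.57, 0.851, 1.47 and 2.46 in diabetic and 1.78, 1.92, 1.93 and 1.32 in euglycemic libraries. All euglycemic libraries and 3 of the 4 diabetic libraries lay above every WT library. The log2 fold change was 0.71 ± 0.20 (SE, limma adjusted p = 0.164) for both mutant groups against WT, 0.65 ± 0.23 for diabetic and 0.76 ± 0.23 for euglycemic. *Ctsh* is also a gene of macrophages, and the 13 macrophage markers summed to 37.8 to 44.96 FPKM in WT, 80.1 to 201 in diabetic and 60.0 to 128 in euglycemic libraries. Of these markers *Adgre1*, *Tyrobp*, *Aif1*, *Ptprc* and *Itgam* were listed at 0 in all of WT, and *Ptprc* and *Itgam* also in all euglycemic libraries. The sum of 128 FPKM was that of euglycemic replicate 2, where the macrophage genes *Lyz2* and *Csf1r* were at 0.160 and 0.0115 FPKM. The part of such cells in the difference was not tested. *Ctsa*, which also protects the enzyme encoded by *Neu1*, was the lowest of its group at -0.01 ± 0.19 (SE) for both mutant groups against WT. It was at 11.2, 11.2 and 11.3 FPKM in WT, 8.96, 8.03, 12.8 and 10.98 in diabetic and 15.7, 14.3, 10.5 and 10.1 in euglycemic libraries. In euglycemic against WT all 7 genes of the group were above 0, from 0.13 to 0.76, and in diabetic against WT 5 of the 7 were. The log2 fold change for both mutant groups against WT was 0.15 ± 0.18 (SE) for *Ctsb*, 0.23 ± 0.17 for *Ctsd*, 0.33 ± 0.24 for *Ctsz* and 0.20 ± 0.16 for *Tpp1*, a peptidase that removes tripeptides.

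*Gaa* (chromosome 11, 119267887 to 119285454), the acid α-glucosidase that degrades lysosomal glycogen, was at 25.04, 35.8 and 36.5 FPKM in WT, 60.7, 51.3, 56.8 and 36.2 in diabetic and 53.0, 46.7, 40.3 and 45.8 in euglycemic libraries. All euglycemic libraries were above WT, and diabetic replicate 4 was level with WT replicates 2 and 3. The log2 fold change was 0.64 ± 0.22 (SE, limma adjusted p = 0.246) in diabetic against WT and 0.52 ± 0.22 (limma adjusted p = 0.312) in euglycemic against WT. Diabetic replicates 1 to 3, which held acinar RNA, were above replicate 4, and without the libraries of that kind, which leaves replicate 4 alone, the diabetic difference was 0.17. Of the euglycemic libraries, replicates 1 and 4 held acinar RNA and were at 53.0 and 45.8 FPKM of *Gaa*. Replicates 2 and 3, with summed acinar markers of 14.9 and 15.8 FPKM, were at 46.7 and 40.3 FPKM of it. The part of acinar RNA in the differences of *Gaa* was not tested. *Hexa* (chromosome 9, 59539540 to 59565109) was at 159.8, 151 and 155 FPKM in WT, 107, 102, 125 and 105 in diabetic and 196, 172, 145 and 138 in euglycemic libraries. The highest diabetic value was under the lowest of both other groups. The log2 fold change was -0.50 ± 0.18 (SE, limma adjusted p = 0.275) in diabetic against WT and 0.06 ± 0.18 in euglycemic against WT. *Gusb*, *Neu1* and *Glb1* lay between -0.19 and 0.27 in diabetic against WT and between 0.03 and 0.24 in euglycemic against WT.

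*Psap* (chromosome 10, 60277627 to 60302597), the precursor of the saposins that present sphingolipids to their enzymes, had a wide spread within WT. It was at 68.3, 134 and 163 FPKM in WT, 57.1, 91.6, 135 and 72.0 in diabetic and 89.0, 69.8, 91.6 and 56.8 in euglycemic libraries. The groups overlapped, since WT replicate 1 lay among the mutant libraries, and the log2 fold change was -0.51 ± 0.30 (SE, limma adjusted p = 0.576) for both mutant groups against WT. It was -0.88 without WT replicate 1 and -0.26 without WT replicate 3. *Asah1*, the acid ceramidase, was at 83.1, 58.3 and 55.0 FPKM in WT, 52.9, 45.1, 63.6 and 61.5 in diabetic and 72.1, 62.9, 64.9 and 34.5 in euglycemic libraries, a log2 fold change of -0.20 ± 0.23 (SE). *Lamp1* (chromosome 8, 13159161 to 13175338) was at 618, 467 and 476 FPKM in WT, 372, 382, 459.7 and 438 in diabetic and 555, 449, 506 and 482 in euglycemic libraries. All diabetic libraries lay below WT, by a log2 fold change of -0.33 ± 0.19 (SE, limma adjusted p = 0.546), and of -0.20 without WT replicate 1. *Scarb2*, the receptor that carries glucocerebrosidase to the lysosome, was at 17.1, 12.3 and 15.3 FPKM in WT, 18.3, 17.1, 20.5 and 16.8 in diabetic and 22.5, 23.0, 17.7 and 16.6 in euglycemic libraries. Its log2 fold change was 0.34 ± 0.17 (SE, limma adjusted p = 0.488) for both mutant groups against WT and 0.22 without WT replicate 2. *Npc1* and *Npc2*, which together export cholesterol from the lysosome, differed by 0.21 ± 0.16 and -0.07 ± 0.22 (SE) in that comparison. *Npc1* was at 0.534, 0.602 and 0.796 FPKM in WT, 0.931, 1.201, 1.21 and 1.11 in diabetic and 0.559, 0.524, 0.828 and 0.960 in euglycemic libraries, so all diabetic libraries were above WT, by 0.36 ± 0.18 (SE, limma adjusted p = 0.442). *Npc2* was at 77.8, 47.6 and 49.4 FPKM in WT, 40.2, 38.0, 57.4 and 55.8 in diabetic and 68.6, 70.8, 67.8 and 44.1 in euglycemic libraries. No pair of its groups was apart. *Lamp2*, the partner of *Lamp1* in the lysosomal membrane, and *Mcoln1* differed by -0.09 ± 0.17 and -0.04 ± 0.17 (SE) for both mutant groups against WT.

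**Figure D4:**
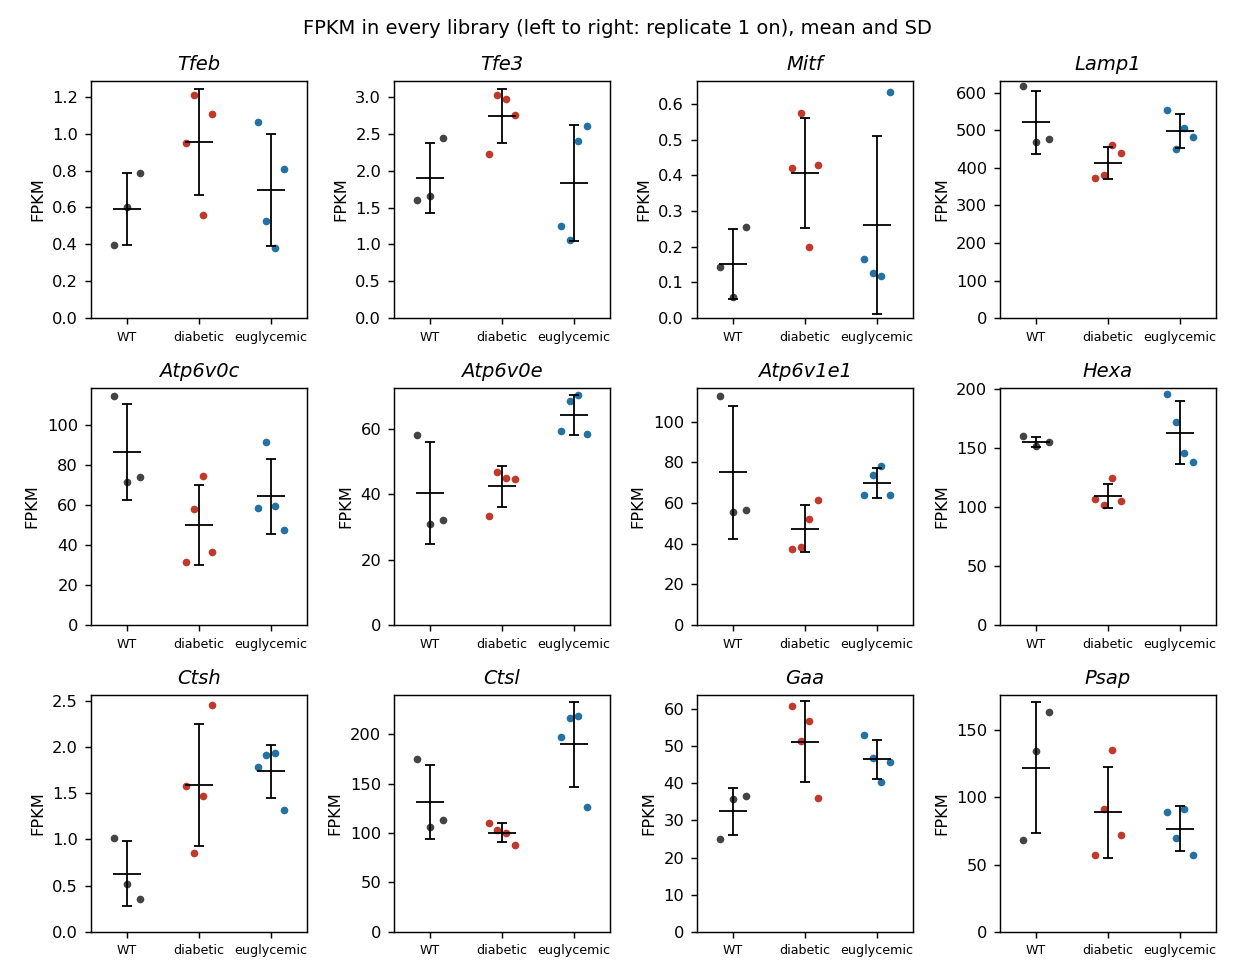
FPKM in each library for the 3 TFEB family genes and 9 other members, with points from left to right in replicate order within WT (n = 3), diabetic and euglycemic (n = 4 each). The horizontal bar is the mean and the error bar the SD. *Hexa* is lower in all diabetic libraries, at 102 to 125 FPKM, than in all others, and *Atp6v0e* is higher in all euglycemic libraries, at 58.4 to 70.2 FPKM.

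Diabetic and euglycemic libraries share the deletion of *Raptor* and differ in the insulin implant. Of the 38 members 28 had a log2 fold change below 0, and the diabetic libraries lay wholly below the euglycemic ones for 6 (*Atp6v0b*, *Atp6v0e*, *Atp6v1e1*, *Atp6v1f*, *Ctsl* and *Hexa*) and wholly above them for 0, beside 7.42% and 6.85% of all genes tested. The largest of these was *Ctsl* (chromosome 13, 64359337 to 64370890), which was named after its values were seen and encodes a cathepsin that cleaves proteins in the lysosome. It was at 175, 106 and 114 FPKM in WT, 109.9, 104, 100.5 and 87.5 in diabetic and 198, 216, 218 and 126 in euglycemic libraries. The log2 fold change was -0.88 ± 0.22 (SE, limma adjusted p = 0.123) in diabetic against euglycemic, and 0.53 ± 0.24 (limma adjusted p = 0.352) in euglycemic against WT. Without WT replicate 1 the same diabetic-euglycemic difference had an adjusted p of 0.0416, in a setting where 3.40% of all genes were called (380 of 11186) against 0.00889% with all libraries. Of its exon bases 26.8% overlap *Gm47123* on the other strand, and the library kit is not stated to keep strand. For *Hexa* the difference was -0.56 ± 0.17 (SE, limma adjusted p = 0.135), and all 7 cathepsin and TPP1 genes and 7 of the 8 V1 subunits were below 0. *Atp6v0d1*, also named after its values were seen, went the other way, at 0.51 ± 0.23 (SE, limma adjusted p = 0.228), with 60.5, 60.5, 75.4 and 67.2 FPKM in diabetic and 40.0, 41.6, 38.0 and 68.9 in euglycemic libraries. There the groups overlapped through euglycemic replicate 4.

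Transcript length moved with the differences over all genes tested, and most with that of diabetic against euglycemic. In that comparison the median of all genes was -0.33 on the log2 scale for transcripts under 1.5 kb (2806 genes), -0.05 from 1.5 to 3 kb (4235 genes) and 0.26 over 3 kb (4172 genes), where length is the median over annotated transcripts of a gene. In euglycemic against WT the medians under 1.5 kb and over 3 kb were 0.21 and -0.16, and in diabetic against WT they were -0.11 and 0.10. The 7 short members, all but *Ctsz* subunits of the pump (*Atp6v0e* among them, at 0.772 kb), had a median of -0.58 in diabetic against euglycemic, where all were below 0, and of 0.22 in euglycemic against WT. In diabetic against euglycemic the 18 members of middle length had a median of -0.15, and the 13 long ones -0.08. With each library centred on the trend with length, the difference of *Atp6v0e* in that comparison was -0.23 (0.47 in euglycemic against WT), of *Atp6v1f* -0.32 and of *Atp6v0b* -0.14, whereas *Hexa* was at -0.46 and *Ctsl* at -1.14, and 0 members were called. Among single libraries, short members stood highest in WT replicate 1, by a median of 0.60 over their mean of all libraries, and lowest in diabetic replicate 1, by -0.68. All genes of that length went the same way, by 0.30 and -0.29.

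**Figure D5:**
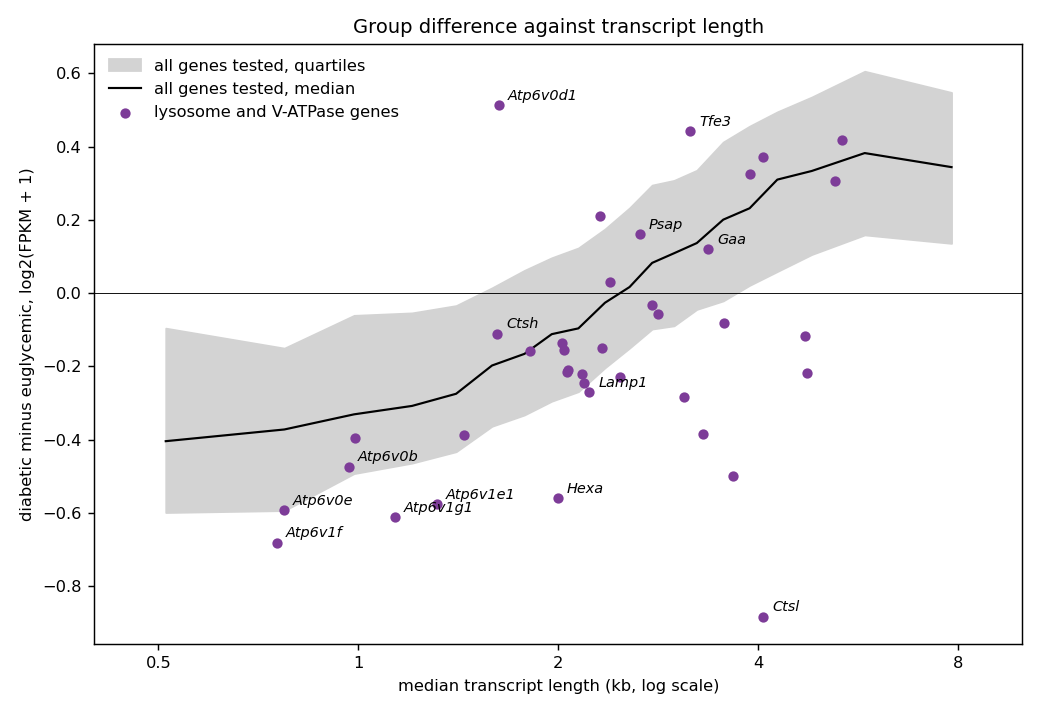
Difference of diabetic minus euglycemic on the log2(FPKM + 1) scale against the median transcript length of a gene in kb on a log scale. The line is the median and the grey band the quartiles of all genes tested in 20 classes of length, and the points are the 38 members. Short pump subunits lie below 0, and *Ctsl* lies far below it at -0.88.

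Around the members, 172 further genes for lysosomal proteins, their sorting and TFEB regulation were read as 8 lists, of which 168 were found and 139 tested. Of these only *Sumf1* was called (chromosome 6, 108107028 to 108185582), which encodes the enzyme that activates lysosomal sulfatases before they leave the endoplasmic reticulum. This 1 gene of 139 stands beside 0.498% of all genes called lower in diabetic against WT and 0.516% in both mutant groups against WT, so the count is no result about the lists. It was at 30.7, 23.7 and 23.1 FPKM in WT, 12.5, 12.5, 12.8 and 14.99 in diabetic and 18.7, 16.7, 16.8 and 13.5 in euglycemic libraries. Every mutant library was below every WT library. *Sumf1* fell in diabetic against WT by 0.91 ± 0.18 on the log2 scale (SE, limma adjusted p = 0.0355) and in both mutant groups against WT by 0.76 ± 0.16 (adjusted p = 0.0414), while euglycemic against WT gave -0.62 ± 0.18 (adjusted p = 0.169). The call in diabetic against WT was lost without any 1 of the 3 WT libraries, the 4 diabetic libraries or euglycemic replicate 2 or 3, with adjusted p of up to 0.108. In those settings 23 to 83 of all genes tested were called, against 109 with all libraries. The log2 fold change of *Sumf1* stayed between -0.98 and -0.78 with each library left out. Without the libraries that held acinar RNA, 1 diabetic library was left, assumed to vary like the other groups, and the difference was -0.74. The call for both mutant groups was lost without any 1 of the WT libraries, diabetic replicate 1, 2 or 3 or euglycemic replicate 2 or 3 (adjusted p of up to 0.152). With each library left out, that difference stayed between -0.84 and -0.64. Both calls of *Sumf1* also ended with TPM, with no filter, with the replicate block and with the acinar covariate. Over all alternatives its log2 fold change ran from -0.98 to -0.74 in diabetic against WT and from -0.84 to -0.64 in both mutant groups against WT. At an unadjusted p of at most 0.05, 2 of the 139 pathway genes were higher and 7 lower in diabetic against WT, beside 6.15% and 5.74% of all genes, and 7 were higher and 10 lower in euglycemic against WT, beside 7.33% and 6.52%. Their median log2 fold changes were 0.02 and -0.01, close to those of all genes.

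The log2 fold changes of members with an E-box can be set beside those without one, as a description. In diabetic against WT 6 of 11 were above 0 with a median of 0.02, against 7 of 18 tested with a window and no E-box, with a median of -0.15. In euglycemic against WT it was 8 of 11 with a median of 0.22, against 13 of 18 with a median of 0.06, and 0 were called in either. Reads of some members could be shared with a neighbour or a copy, since 34.4% of the exon bases of *Ctsd* overlap *Gm49369* on the same strand, 17.4% of those of *Ctsa* overlap a gene on the other strand, and 19.2% of the 50-base stretches of *Atp6v1g1* also occur elsewhere.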

How the data were processed

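FPKM values of 34745 gene entries in 11 libraries were deposited by the authors. Poly-A RNA from sorted cells was read in pairs. The study's methods name Tophat and Cufflinks on mm10, whereas the submitters' processing notes name HISAT2 2.0.4, StringTie 1.3.0 and edgeR, and the files do not settle which made the values. Of the entries 34728 symbols were kept, and 17 repeated ones were left out. No counts were used, so depth was inferred from the FPKM steps of single-exon genes, 92.7 to 97.3% of which were whole within 0.02.

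The 11251 genes with at least 1 FPKM in at least 3 libraries were fitted as log2(FPKM + 1) with limma 3.58.1 (R 4.3.3, moderated with a trend) over all 11 libraries, followed by Benjamini-Hochberg adjustment. The scripts were tested on simulated data. A member below the filter was tested by exact permutation (Python 3.11.15, numpy 2.4.6). Gene positions and overlaps came from GENCODE on GRCm38, and promoters from RefSeq. Values in every library are given for the TFEB family, for called genes, and for the highest and lowest member of each role by the change of both mutant groups against WT. The members and lists were chosen with earlier results of these data known. Alternatives were TPM, another normalization, another pseudocount, other filters, no trend, library weights, a replicate block, only the groups compared and leaving out each replicate, to which an acinar covariate, omission of libraries with acinar RNA and centring on transcript length were added after seeing the data. Same-numbered libraries did not deviate together (mean r of -0.132 over 10 pairs, against 0.0433 over 30 others).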

Additional observations from a re-analysis of the deposited data

Results flagged for a closer look

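In 6 of the 44 groups of 4 libraries examined (*Sumf1* and the members named with single library values, in the diabetic and euglycemic groups), 1 library stood apart by Dixon's criterion at its 95% critical value, which chance passes in about 1 in 20 independent groups. The groups reuse the same 4 diabetic and 4 euglycemic libraries, and some genes were named after their values were seen. That rate is therefore no measure for the count of 6. *Mitf* in euglycemic replicate 4 was at 0.633 FPKM against 0.118 to 0.166 in the others (gap over range 0.890, on the log2(FPKM + 1) scale as for the others). *Atp6v0e* in diabetic replicate 1 was at 33.2 FPKM against 44.6 to 46.7 (0.864). In euglycemic replicate 4, *Atp6ap2* was at 204 FPKM against 305 to 320.4 (0.894) and *Npc2* at 44.1 FPKM against 67.8 to 70.8 (0.906). *Atp6v0d1* was at 68.9 FPKM there against 38.0 to 41.6 (0.848). *Sumf1* in diabetic replicate 4 was at 14.99 FPKM against 12.5 to 12.8 (0.879). Euglycemic replicate 4 also had the highest sum of acinar markers, 4363 FPKM, and the part of that RNA in these values was not tested.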

How the results depend on the processing

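For the members, 0 were called under every alternative run except 2. With library weights, 1 was called in diabetic against WT, 6 in euglycemic against WT, 6 in diabetic against euglycemic and 3 in both mutant groups against WT, where the calls among all genes rose to 4.90%, 20.3%, 10.8% and 9.92%. Leaving out each replicate gave 0 to 0, 0 to 1, 0 to 1 and 0 to 0 calls, and the calls (*Atp6v0e* and *Ctsl*) arose without WT replicate 1, where 4.76% and 3.40% of all genes were called. For the pathway lists, the counts of 1, 0, 0 and 1 became 3, 24, 16 and 10 with library weights. They became 0 (*Sumf1* lost) in diabetic against WT and in both mutant groups against WT with TPM, with no filter, with the replicate block, with the acinar covariate and without the libraries with acinar RNA (1 diabetic library left), and 1 in euglycemic against WT with length centred. Leaving out each replicate gave 0 to 1, 0 to 6, 0 to 8 and 0 to 1, with the 6 and 8 without WT replicate 1. The replicate block called 0 members, with median log2 fold changes of -0.04, 0.14, -0.18 and 0.03. When single libraries were left out, the difference of *Mitf* in euglycemic against WT ran from -0.016 without euglycemic replicate 4 to 0.178 without WT replicate 3. Over all alternatives it reached 0.389. The difference of *Sumf1* in diabetic against euglycemic turned to 0.023 with length centred. The median log2 fold change of the members ranged over all alternatives from -0.14 to 0.06, from 0.03 to 0.26, from -0.28 to -0.06 and from -0.04 to 0.15. In TPM the median of all genes in diabetic against euglycemic was 0.14, beside -0.06 for the members. The cause of these changes was not tested. Depth limits the low members, since *Mitf* was below 1 FPKM in every library.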
